A study of Homo sapiens with 6 samples.

Results

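The 8 genes followed here are known from the bleeding disorder of acute promyelocytic leukemia: tissue factor (F3), its inhibitor TFPI, thrombomodulin (THBD), urokinase (PLAU), the urokinase receptor (PLAUR), plasminogen activator inhibitor 2 (SERPINB2), annexin A2 (ANXA2) and its partner S100A10. They were chosen by name and role, with no threshold on their values, and described where either deposited count table had a row for them. Of the 8 genes named, 7 had such a row among the 13289 genes of either table, and 6 were in both tables, of 12301 genes that the tables shared. SERPINB2 was listed in the retinoic acid table alone, and TFPI was not analysed here.

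Tissue factor starts clotting by binding factor VIIa at the cell surface, and thrombomodulin binds thrombin and turns it to the activation of protein C, which restrains clotting. Urokinase, held at the cell by its receptor, converts plasminogen to plasmin, the protease that dissolves fibrin, and plasminogen activator inhibitor 2 blocks it. Annexin A2 and S100A10 form a complex that binds plasminogen at the cell surface. Leukemic promyelocytes are known to carry both tissue factor and the annexin A2 complex, and retinoic acid is the classic treatment of this disease.

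The upstream sequences of F3, PLAUR, ANXA2 and S100A10 are shown because these 4 genes shared a sign pattern between the knockdown and control libraries, described further on. They are the 250 bases before the transcription start, taken from RefSeq on GRCh38.p14, 5′ to 3′ on the gene's own strand. Capitals mark TGAGTCA, the consensus of the AP-1 factors FOS and JUN.
F3, chr1:94541760-94542009, minus strand: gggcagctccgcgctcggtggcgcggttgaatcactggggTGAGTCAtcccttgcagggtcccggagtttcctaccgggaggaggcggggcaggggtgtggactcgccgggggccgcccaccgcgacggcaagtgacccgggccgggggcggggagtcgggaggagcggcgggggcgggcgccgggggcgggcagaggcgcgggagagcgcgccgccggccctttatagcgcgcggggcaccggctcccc
PLAUR, chr19:43670170-43670419, minus strand: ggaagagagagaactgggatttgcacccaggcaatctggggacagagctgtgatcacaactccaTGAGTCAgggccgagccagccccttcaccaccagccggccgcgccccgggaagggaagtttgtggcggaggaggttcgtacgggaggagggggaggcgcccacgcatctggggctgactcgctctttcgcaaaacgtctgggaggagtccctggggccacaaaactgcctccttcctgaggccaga
ANXA2, chr15:60397987-60398236, minus strand: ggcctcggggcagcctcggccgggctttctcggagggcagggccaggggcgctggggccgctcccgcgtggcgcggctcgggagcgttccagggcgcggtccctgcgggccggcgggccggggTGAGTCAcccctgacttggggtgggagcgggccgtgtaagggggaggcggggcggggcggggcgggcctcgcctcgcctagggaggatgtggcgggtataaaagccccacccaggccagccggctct
S100A10, chr1:151993860-151994109, minus strand: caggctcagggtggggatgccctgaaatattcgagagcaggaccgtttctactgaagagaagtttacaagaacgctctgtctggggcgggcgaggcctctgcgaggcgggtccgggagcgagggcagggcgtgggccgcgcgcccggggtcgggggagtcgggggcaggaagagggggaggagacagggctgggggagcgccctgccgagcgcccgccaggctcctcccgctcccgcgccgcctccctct
TGAGTCA, searched on both strands, began 210 bases before the start in F3, 186 in PLAUR and 127 in ANXA2, and these letters were not in the S100A10 window. Among all 35116 upstream windows of this length, 1476 (4.2%) held the motif. It was not in the windows of PLAU, SERPINB2 or TFPI either. It was 1 of 5 motifs searched on both strands in genes chosen for their sign pattern. AGGTCA, the core letters of retinoic acid receptor sites, in 12.1% of windows, and the NF-kB motif, in 5.67%, matched none of these 4 windows, while AGGTCA matched those of TFPI and SERPINB2 and the NF-kB motif that of TFPI. The F3 window also held GCGGGGGCG, the EGR1 consensus, which 4.72% of windows hold and which overlaps 1 of its 4 matches to the GC box GGGCGG. A match is a description of letters and no measurement of binding.

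The cells were NB4, a human acute promyelocytic leukemia line which differentiates along the granulocyte lineage when given all-trans retinoic acid (ATRA). They carried a control construct, or hairpin 1 or hairpin 2, short hairpin RNAs against SMARCD2, a subunit of the SWI/SNF (BAF) chromatin remodelling complex. Each construct was grown with the vehicle DMSO or with ATRA at 1 µM, which gave 6 RNA-seq libraries: 1 control, 1 hairpin 1 and 1 hairpin 2 library per treatment. The sources used here do not state how long the cells were treated, nor do the labels say whether libraries came from separate cultures, so p-values measure only the spread between these libraries. Library totals ran from 29291209 to 58099733 counts, and values are given as CPM (counts scaled to a common library size, with TMM factors). SMARCD2 itself was below the control in all 4 knockdown libraries, with 25.7 and 39.0 CPM against 95.5 CPM in DMSO and 35.6 and 64.2 CPM against 122 CPM in ATRA. The first sequencing run gave 54.6% and 53.1% of the counts of the control libraries but 70.6% to 80.7% of those of the knockdown libraries.

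Endothelial cells and platelets are known for some of these genes. Of 10 endothelial markers, 4 were listed in DMSO and 3 in ATRA, with a summed level of 19.9 to 21.1 CPM and 25.5 to 27.7 CPM, and KDR, TEK, ROBO4, ESAM and EMCN were in neither table. Of 8 platelet markers 4 were listed, at 30.8 to 35.9 CPM in DMSO and 22.0 to 31.5 CPM in ATRA, and PF4, PPBP, GP9 and GP1BA were in neither table. The promyelocyte markers, led by MPO, summed to 10830 to 11080 CPM in DMSO (10 of 10 listed) and to 5604 to 7280 CPM in ATRA (9 of 10 listed, without ELANE). Monocyte markers summed to 391 to 414 CPM in DMSO (5 of 10 listed) and 452 to 509 CPM in ATRA (7 of 10 listed), and CD14 was listed only in ATRA, at 3.92 to 5.31 CPM. Stromal markers, nearly all of it PDGFRA, summed to 156 to 159 CPM in DMSO (2 of 8 listed) and 198 to 217 CPM in ATRA (3 of 8 listed). In these bulk libraries, fewer cells with a transcript and less of it per cell cannot be told apart, and the part of these marker levels in the results below was not tested.

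**Figure D1:**
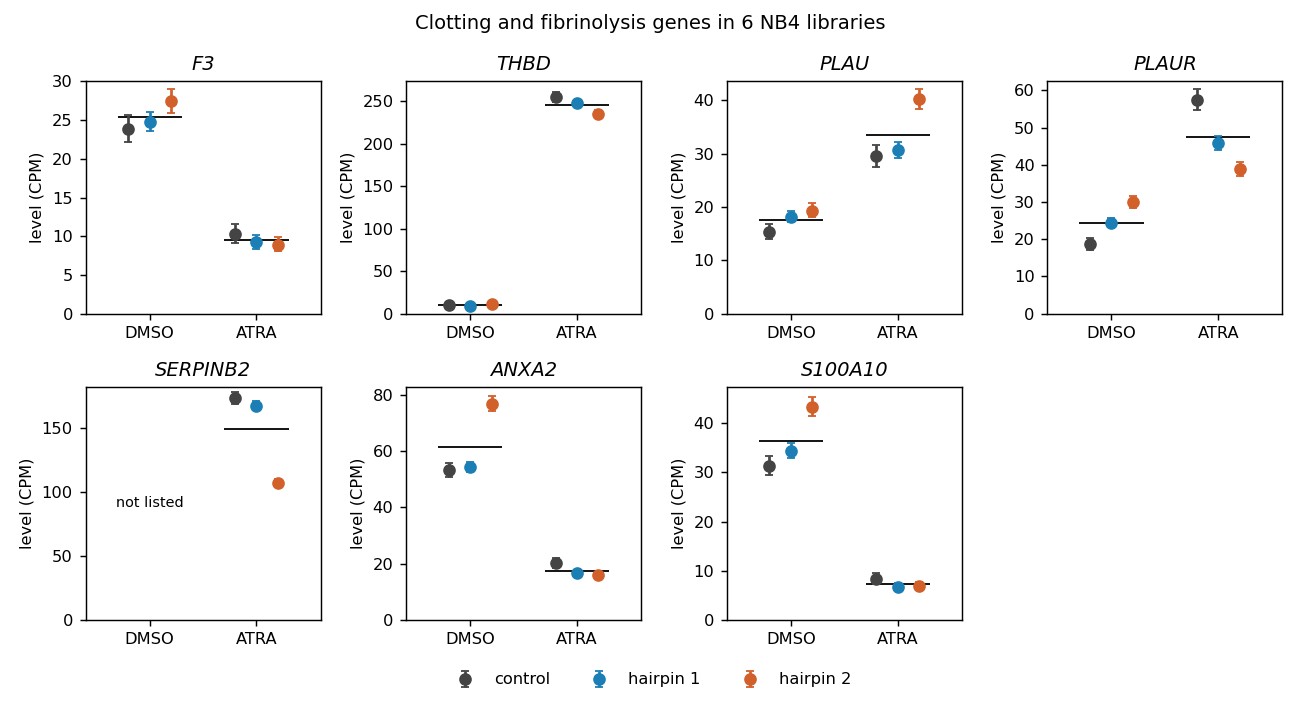
Level of each clotting and fibrinolysis gene in CPM on the vertical axis, which starts at 0, by treatment, for the 6 libraries; points are libraries, coloured by construct, bars are 95% Poisson intervals of the counts (counting error only) and black lines are treatment means. THBD went from about 10 to about 246 CPM under ATRA, F3, ANXA2 and S100A10 were lower in ATRA than in DMSO in all libraries, and SERPINB2 has points in ATRA only.

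The first comparison asked what retinoic acid did to these genes, over the control and both hairpins (3 ATRA against 3 DMSO libraries). Tissue factor, annexin A2 and S100A10 fell, and thrombomodulin, urokinase and the urokinase receptor rose. All 6 genes in both tables passed the threshold (adjusted p under 0.05, edgeR's quasi-likelihood test, Benjamini-Hochberg adjustment over 12301 genes), 3 in each direction. ATRA changed most genes in these cells, with 36.2% called higher and 37.8% called lower, 74.0% in all, so that a call alone does not set these genes apart. The ATRA and DMSO libraries did not overlap for any of the 6, as for 37.6% of all genes with ATRA higher and 39.5% with ATRA lower.

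F3 encodes tissue factor, the initiator of clotting. In DMSO the control library measured 23.8 CPM, the hairpin 1 library 24.8 and the hairpin 2 library 27.4, and in ATRA the same constructs measured 10.3, 9.23 and 8.92 CPM. Every ATRA library lay below every DMSO library, and the mean went from 25.3 ± 1.86 to 9.49 ± 0.731 CPM (SD, n = 3 each). F3 fell 2.68-fold, a log2 fold change of -1.42 ± 0.09 (SE, edgeR adjusted p = 1.8e-06).

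THBD encodes thrombomodulin, the thrombin receptor that activates protein C. Its DMSO levels were 9.77 CPM for the control construct, 9.16 CPM for hairpin 1 and 11.2 CPM for hairpin 2, and its ATRA levels 255, 247 and 235 CPM. This was the largest change among the members, and the constructs differed little within a treatment. The mean rose from 10.05 ± 1.06 to 246 ± 10.3 CPM (SD, n = 3 each), 24.5-fold, with a log2 fold change of 4.61 ± 0.08 (SE, edgeR adjusted p = 1.7e-09).

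PLAU, the urokinase gene, measured 15.4, 18.2 and 19.3 CPM in the control, hairpin 1 and hairpin 2 libraries in DMSO and 29.6, 30.7 and 40.3 CPM in ATRA. The libraries of the 2 treatments did not overlap, and the hairpin 2 library in ATRA stood highest. PLAU rose 1.90-fold (log2 fold change 0.93 ± 0.10, SE, edgeR adjusted p = 5.0e-05).

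The urokinase receptor gene PLAUR measured 18.7, 24.5 and 30.0 CPM in the control, hairpin 1 and hairpin 2 libraries in DMSO, and 57.5, 45.8 and 39.0 CPM in ATRA. The order of the constructs turned over between the treatments: the control library was the lowest in DMSO and the highest in ATRA. PLAUR rose 1.92-fold over the constructs (log2 fold change 0.94 ± 0.18, SE, edgeR adjusted p = 0.0016), from a mean of 24.4 ± 5.66 to 47.4 ± 9.37 CPM (SD, n = 3 each).

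SERPINB2, the plasminogen activator inhibitor that blocks urokinase and is best known from monocytes and keratinocytes, was listed in the ATRA table alone. There the control library gave 174 CPM, the hairpin 1 library 168 CPM and the hairpin 2 library 107 CPM. The hairpin 2 library was the low one, and the control and hairpin 1 libraries lay close together. The rule by which a gene entered each deposited table is not stated, so its DMSO level was not analysed here and no ATRA response is given.

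ANXA2, the annexin subunit of the plasminogen-binding complex, measured 53.1, 54.3 and 76.8 CPM for control, hairpin 1 and hairpin 2 in DMSO, and 20.1, 16.5 and 15.9 CPM in ATRA. The hairpin 2 library in DMSO stood apart above the others. ANXA2 fell 3.53-fold (log2 fold change -1.82 ± 0.16, SE, edgeR adjusted p = 1.1e-05). The size of this fall is uncertain, since annexin A2 has pseudogenes of near-identical sequence and the sources used here do not say how reads were assigned.

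S100A10, the partner that annexin A2 is known to protect from degradation, measured 31.4, 34.4 and 43.4 CPM in the control, hairpin 1 and hairpin 2 libraries in DMSO and 8.40, 6.75 and 6.95 CPM in ATRA. Both subunits had the same order of libraries in DMSO, an order that F3, PLAU and PLAUR had as well. The share of all genes with this order was not counted. Both hairpins lay above the control in DMSO for 35.0% of all genes. In ATRA the order was not shared: the lowest library was hairpin 2 for ANXA2 and hairpin 1 for S100A10. Neither subunit had an ATRA library within its DMSO range, as held for every member in both tables. S100A10 fell 4.98-fold (log2 fold change -2.32 ± 0.14, SE, edgeR adjusted p = 1.2e-06), from a mean of 36.4 ± 6.24 to 7.37 ± 0.899 CPM (SD, n = 3 each). AHNAK, a very large scaffold protein known to bind the annexin A2 and S100A10 complex, went from 611, 628 and 799 CPM to 12.4, 10.2 and 16.4 CPM (log2 fold change -5.72 ± 0.18, SE, edgeR adjusted p = 2.5e-08).

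Between genes, levels were compared as CPM per kilobase of the principal transcript in GENCODE v29. In DMSO the order was ANXA2 (36.6 ± 7.97 CPM per kilobase, SD, n = 3), S100A10 (30.3 ± 5.19), PLAUR (15.8 ± 3.66), F3 (11.1 ± 0.813), PLAU (7.60 ± 0.876) and THBD (2.45 ± 0.257). The libraries of ANXA2 and S100A10 overlapped on this scale, those of PLAUR and F3 came close without overlapping, and the other neighbours stood apart. In ATRA the order was SERPINB2 (69.3 ± 17.1 CPM per kilobase), THBD (59.8 ± 2.5), PLAUR (30.6 ± 6.05), PLAU (14.4 ± 2.54), ANXA2 (10.5 ± 1.37), S100A10 (6.13 ± 0.748) and F3 (4.15 ± 0.320). SERPINB2 and THBD overlapped there, and no other neighbours in this order did. Thrombomodulin was thus the lowest of the listed members in DMSO and stood next to SERPINB2 at the top in ATRA, while the annexin A2 complex led in DMSO and stood near the end in ATRA.

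Taken by state, the 6 genes were called in the same direction in the control libraries alone (59.0% of all genes called) and in the knockdown libraries alone (69.9% called). The control response compares 1 ATRA with 1 DMSO library, so its errors and calls take their spread from the hairpin libraries and have no replicate check of their own. F3 fell by 1.21 ± 0.14 on the log2 scale in control cells and by 1.52 ± 0.10 in knockdown cells (SE). PLAU gave 0.94 ± 0.19 and 0.92 ± 0.13, and THBD 4.71 ± 0.14 and 4.58 ± 0.10, so that the states differed by less than 1 SE of their difference. PLAUR rose by 1.62 ± 0.17 in control cells and by 0.64 ± 0.12 in knockdown cells. ANXA2 gave -1.40 ± 0.22 and -2.01 ± 0.15, and S100A10 -1.90 ± 0.19 and -2.50 ± 0.13. The tests of these differences are given with the knockdown comparisons.

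**Figure D2:**
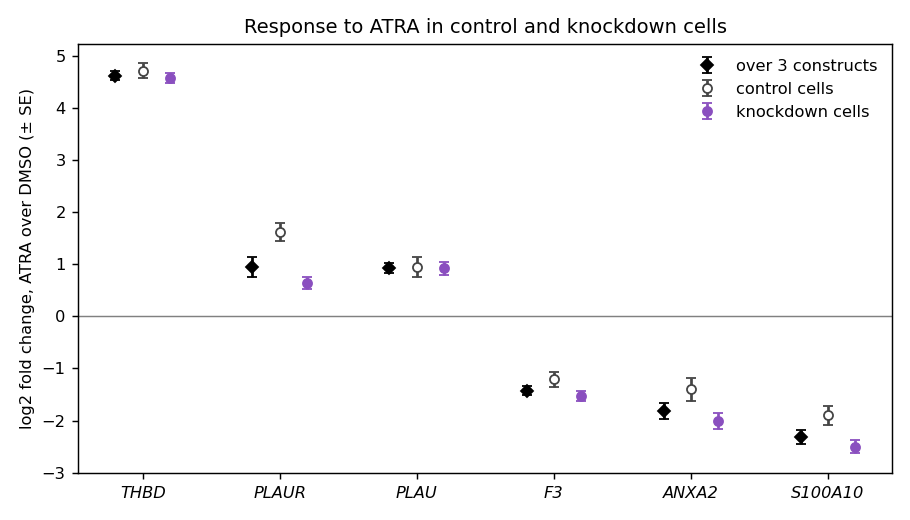
Log2 fold change of ATRA over DMSO on the vertical axis for each gene, with bars of 1 SE; diamonds are the estimate over 3 constructs, open circles control cells and filled circles knockdown cells. The response of PLAUR was 1.62 in control and 0.64 in knockdown cells, and those of THBD and PLAU nearly coincide.

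Among the other genes of clotting and fibrinolysis, 72 of 8 lists were in both tables, and the median log2 fold change of all 12301 genes under ATRA was -0.01. With library totals in place of TMM that median was -0.14, and small changes in the lists moved with it. Changes named below kept their direction under library totals and RLE factors.

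Of 12 clotting factor genes and their secretory helpers in both tables, 3 rose, 1 fell and 8 did not pass the test (median -0.01), and 9 more were in neither table. FGL2, fibrinogen-like 2, which can act as a prothrombinase, rose from 5.61 ± 2.25 to 100.5 ± 25.9 CPM (SD, n = 3; log2 fold change 4.19 ± 0.20, SE, edgeR adjusted p = 2.6e-07). F8, coagulation factor VIII, rose by 0.33 ± 0.06, PDIA3 by 0.20 ± 0.05 and LMAN1, a cargo receptor of factors V and VIII, fell by 0.22 ± 0.05. P4HB, the protein disulfide isomerase that was the most abundant of the list, gave -0.09 ± 0.04 (edgeR adjusted p = 0.081). F5 was listed only in ATRA, at 3.51 to 5.39 CPM, and VWF only in DMSO, at 0.299 to 0.615 CPM. With library totals this list gave 2 higher and 6 lower, and PDIA3 did not pass.

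Of 8 genes in a list of anticoagulant proteins, which also holds the complement regulators CD55 and CD59 and the ligand GAS6, 6 rose and 2 fell (median 0.91). With library totals 5 rose, since GAS6 did not pass. CD55, which restrains complement, rose from 56.2 ± 3.90 to 250.1 ± 34.2 CPM (SD, n = 3; log2 fold change 2.15 ± 0.10, SE, edgeR adjusted p = 2.4e-07). ENTPD1, the ectonucleotidase CD39, rose by 1.47 ± 0.07 and PROCR, the endothelial protein C receptor that works beside thrombomodulin, by 1.25 ± 0.23, though only from 0.704 ± 0.138 to 1.64 ± 0.0216 CPM. The 2 that fell were PROC, the gene of protein C (-1.59 ± 0.25), and PROZ (-1.41 ± 0.24), both low, at means of 1.93 and 1.84 CPM in DMSO. PROS1, the cofactor protein S, was listed in ATRA only, at 3.40 to 4.10 CPM, as was NT5E, at 0.248 to 0.468 CPM. The 2 thrombin receptors both fell: F2R gave -1.25 ± 0.26 and F2RL3 -3.04 ± 0.32, from means of 1.66 and 3.94 CPM.

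Among 16 fibrinolysis regulators and plasminogen receptors, 9 rose, 4 fell and 3 did not pass (median 0.75). The integrin subunits ITGAM and ITGB2, which form Mac-1, a receptor that binds urokinase and plasminogen, rose from 30.8 ± 6.70 to 464 ± 10.9 CPM and from 149.6 ± 15.2 to 1291 ± 24.8 CPM (SD, n = 3; log2 fold changes 3.92 ± 0.12 and 3.11 ± 0.06, SE). LRP1, the receptor that clears complexes of urokinase with its inhibitors, rose by 2.74 ± 0.12, and MRC2, a collagen receptor known to associate with the urokinase receptor, fell by 3.36 ± 0.06 from 366 ± 7.90 to 35.6 ± 3.68 CPM. SERPINB6 rose by 5.72 ± 0.38 from a mean of 0.165 CPM. ENO1, the most abundant of the list and a plasminogen-binding form of enolase, gave -0.11 ± 0.07 (edgeR adjusted p = 0.22), and HMGB1, next in abundance, fell by 0.26 ± 0.05. FPR2, a receptor that cleaved urokinase receptor is known to engage, was listed only in ATRA, at 20.3 to 24.0 CPM.

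Most of the other annexins rose. Of 8 genes in that list, which includes AHNAK, 5 rose, 2 fell and 1 did not pass (median 0.48). ANXA3 rose from 0.433 ± 0.127 to 43.5 ± 3.38 CPM (SD, n = 3; log2 fold change 6.61 ± 0.16, SE, edgeR adjusted p = 6.8e-09), ANXA1 by 1.18 ± 0.09, ANXA4 by 0.65 ± 0.07, ANXA11 by 0.61 ± 0.04 and ANXA6, the most abundant of them beside AHNAK, by 0.35 ± 0.06. ANXA10 was listed in ATRA only, at 4.36 to 6.12 CPM. Of 7 genes of lipid scrambling, which controls the phosphatidylserine on which clotting factors assemble, 6 rose and 0 fell (median 0.63), with PLSCR1 rising by 3.16 ± 0.08, ATP8A1 by 0.90 ± 0.08, XKR8 by 0.64 ± 0.14, TMEM30A by 0.63 ± 0.04 and ATP11A by 0.54 ± 0.06. With library totals 5 of the 7 rose, and with RLE factors 7. Of the granule proteases, PRTN3 rose by 2.58 ± 0.12 and CTSG fell by 4.07 ± 0.17, and ELANE was listed in DMSO only, at 0.083 to 0.615 CPM.

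While tissue factor fell, most of the factors known to drive or restrain its transcription rose. Of 17 such factors, 12 rose, 4 fell and 1 did not pass (median 0.66). EGR1 rose by 1.52 ± 0.34, FOS by 1.62 ± 0.18, JUND by 1.82 ± 0.07 and REL, an NF-kB subunit, by 2.26 ± 0.11 (SE). KLF4 fell by 2.78 ± 0.23. Among the other FOS and JUN genes, JUN went from 46.05 ± 4.48 to 22.7 ± 6.28 CPM and FOSL1 from 20.75 ± 3.51 to 9.86 ± 0.532 CPM (SD, n = 3 each). The means of FOSL2, FOSB and JUNB were higher in ATRA. SP1 and RARA, the most abundant of the list, gave 0.66 ± 0.05 and -0.20 ± 0.04. The list was not tested as a set.

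**Figure D3:**
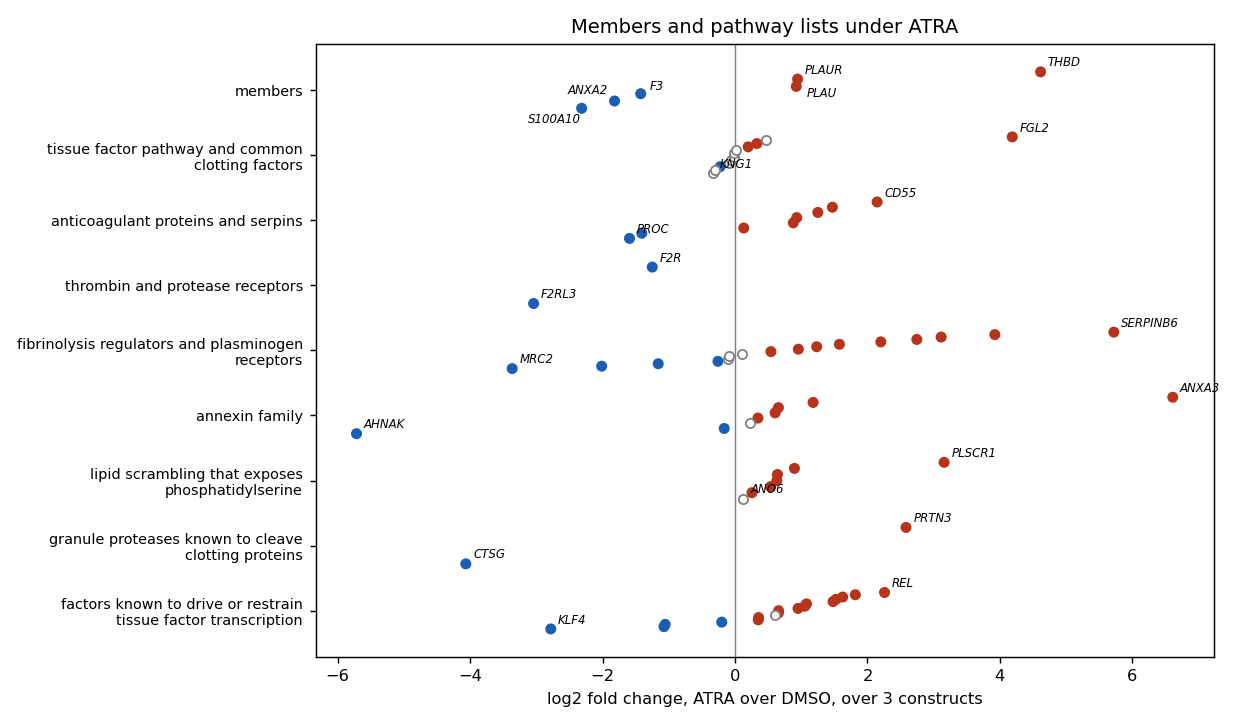
Log2 fold change of ATRA over DMSO on the horizontal axis for the members and the genes of each pathway list (rows, with a small vertical spread so that points do not hide each other); red and blue points passed the threshold higher or lower, open points did not. The members split into THBD, PLAUR and PLAU on the right and F3, ANXA2 and S100A10 on the left, and the annexin row runs from AHNAK at -5.72 to ANXA3 at 6.61.

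The second comparison asked what loss of SMARCD2 did to these genes in each treatment (2 knockdown libraries against 1 control library). No member was called in DMSO, where edgeR called 0 of 12301 genes (0.0%), 868 had an unadjusted p under 0.05, and the DESeq2 Wald test called 38. In ATRA no member was called either, where edgeR called 1 gene (0.00813%), 1329 had an unadjusted p under 0.05, and DESeq2 called 52. Errors in both comparisons come from how far the hairpins lay apart, and the single control library is taken to vary as much. SMARCD2, the knocked-down gene, was not called either, at -1.55 ± 0.32 in DMSO and -1.29 ± 0.31 in ATRA on the log2 scale (SE). A missing call here is therefore no evidence of no difference.

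In DMSO, PLAUR stood 0.54 ± 0.15 above the control on the log2 scale (SE, edgeR adjusted p = 0.59, unadjusted p = 0.0090), the largest difference of the members. S100A10 gave 0.31 ± 0.14 (edgeR adjusted p = 0.72), ANXA2 0.30 ± 0.18 (0.77), PLAU 0.29 ± 0.17 (0.77), F3 0.13 ± 0.12 (0.85) and THBD 0.05 ± 0.14 (0.96). ANXA2 rests on hairpin 2: its difference was 0.03 for hairpin 1 and 0.53 for hairpin 2 on the scale of log2(CPM + 0.5). In ATRA the differences of PLAUR, ANXA2, S100A10 and F3 had the other sign, at -0.44 ± 0.14 (edgeR adjusted p = 0.38, unadjusted p = 0.014), -0.31 ± 0.20 (0.61), -0.29 ± 0.18 (0.59) and -0.18 ± 0.13 (0.64). THBD gave -0.08 ± 0.09 (edgeR adjusted p = 0.78) and PLAU 0.26 ± 0.16 (0.59). PLAU in ATRA rests on hairpin 2: its difference was 0.05 without that library and 0.45 without hairpin 1.

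SERPINB2 was tested among the 3 ATRA libraries alone, where 0.00779% of the genes of that table were called. Its knockdown difference was -0.34 ± 0.22 (SE, edgeR adjusted p = 0.59), made of -0.05 with hairpin 1 and -0.70 with hairpin 2 on the scale of log2(CPM + 0.5). It passed in the second sequencing run alone, at -0.35, where the share of all genes called was not counted. That run gave 179 CPM in the control, 173.5 CPM with hairpin 1 and 108.4 CPM with hairpin 2, so the difference rests on hairpin 2.

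The authors' deposited tables, in which fold changes are shrunken and runs may have entered as replicates, list PLAUR at a log2 fold change of 0.36 in DMSO (authors' adjusted p = 0.0075) and of -0.35 in ATRA (authors' adjusted p = 0.0041). No other member passed in the authors' deposited tables, and the share of all genes that passed there was not counted here.

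Each hairpin set against the control of its treatment gave the same picture without averaging. Both hairpins lay above the control in DMSO for 5 of 6 members (35.0% of all genes) and below it in ATRA for 5 of 6 (37.4% of all genes). Both held for 4 of 6, F3, PLAUR, ANXA2 and S100A10, against 12.5% of all genes, and the reverse for none of 6, against 12.8%. PLAU lay above the control with both hairpins in both treatments, as 14.6% of all genes did, and none of the 6 lay below it with both hairpins in both, as 14.2% of all genes did. These counts all turn on 1 control library per treatment and carry no test. The same 4 members had the pattern with library totals, with RLE factors and in the first run alone, and THBD joined them in the second run alone.

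For PLAUR the hairpin differences were 0.38 and 0.67 in DMSO and -0.32 and -0.56 in ATRA, hairpin 2 being the farther from the control in both. Both runs gave this order: in DMSO 18.1, 24.2 and 29.2 CPM in the first run and 19.3, 25.3 and 31.9 CPM in the second for control, hairpin 1 and hairpin 2. For S100A10 the differences were 0.13 and 0.46 in DMSO and -0.30 and -0.26 in ATRA. Those of F3 were small, 0.06 and 0.20 in DMSO and -0.15 and -0.20 in ATRA, and in DMSO the 95% Poisson intervals of its control (22.1 to 25.6 CPM) and hairpin 1 (23.6 to 26.1 CPM) libraries overlapped. Those of ANXA2 in DMSO overlapped too (50.6 to 55.8 CPM in the control and 52.4 to 56.2 CPM with hairpin 1). So did those of PLAU in ATRA (27.6 to 31.6 CPM and 29.1 to 32.3 CPM). For S100A10 in DMSO they were 29.4 to 33.4 CPM and 32.9 to 35.9 CPM, and for THBD in ATRA 249 to 261 CPM and 243 to 252 CPM. In ATRA the control intervals of F3 (9.16 to 11.6 CPM) and S100A10 (7.36 to 9.54 CPM) overlapped those of both hairpins. All these signs enter the counts above. An overlap of such intervals is only a rough guide to counting error and no test of a difference. Among F3, PLAUR, ANXA2 and S100A10, only PLAUR had no such overlap.

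**Figure D4:**
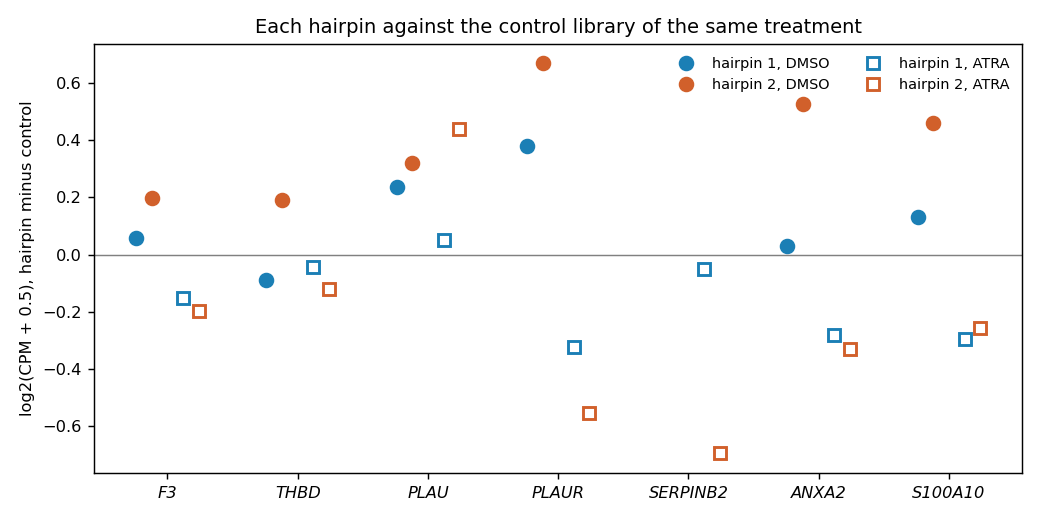
Difference of each hairpin library from the control library of its treatment, in log2(CPM + 0.5), on the vertical axis, by gene; filled circles are DMSO, open squares ATRA, blue hairpin 1 and orange hairpin 2. F3, PLAUR, ANXA2 and S100A10 lie above 0 in DMSO and below 0 in ATRA with both hairpins, and PLAU lies above 0 in all 4.

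The test of the difference itself, the ATRA response of knockdown minus that of control cells, called no member. edgeR called 6 of 12301 genes (0.0488%), 979 had an unadjusted p under 0.05, and DESeq2 called 48. PLAUR had the smallest unadjusted p of the members, with a difference of -0.98 ± 0.21 (SE, unadjusted p = 0.0018, edgeR adjusted p = 0.33), which DESeq2 called at -0.99 (adjusted p = 0.017). S100A10 gave -0.60 ± 0.23 (unadjusted p = 0.031, edgeR adjusted p = 0.59) and ANXA2 -0.61 ± 0.27 (unadjusted p = 0.055, edgeR adjusted p = 0.64). F3 gave -0.31 ± 0.17 (edgeR adjusted p = 0.68), THBD -0.13 ± 0.17 (0.87) and PLAU -0.02 ± 0.23 (0.99).

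In the 4-group edgeR fit no gene of the 8 lists was called in either knockdown comparison or in the difference, and DESeq2 called 1, JUN in ATRA. The authors' deposited tables list 4 of 74 genes of the 8 lists at an authors' adjusted p under 0.05 in DMSO (EGR1, F8, KLF4 and PRTN3). In ATRA they list 7 of 77 (CD55, EGR1, F8, FGL2, JUN, PRTN3 and SERPINB8). The share of all genes that passed there was not counted here, so these counts cannot be set against it. Both hairpins lay above the control in DMSO and below it in ATRA for 13 of 72 list genes, against 12.5% of all genes. These were 6 of the 17 transcription factors (EGR1, FOS, FOSL2, RELA, NFKB1 and KLF4), 3 of the 16 fibrinolysis genes (PLAT, SERPINB6 and ENO1), and CD55, F2RL3, F12 and LMAN1. EGR1 measured 7.20, 11.6 and 20.9 CPM in the control, hairpin 1 and hairpin 2 libraries in DMSO and 49.2, 36.0 and 29.5 CPM in ATRA, an order like that of PLAUR. The EGR1 difference in ATRA response was -1.75 ± 0.44 (SE, unadjusted p = 0.0047, edgeR adjusted p = 0.42).

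**Figure D5:**
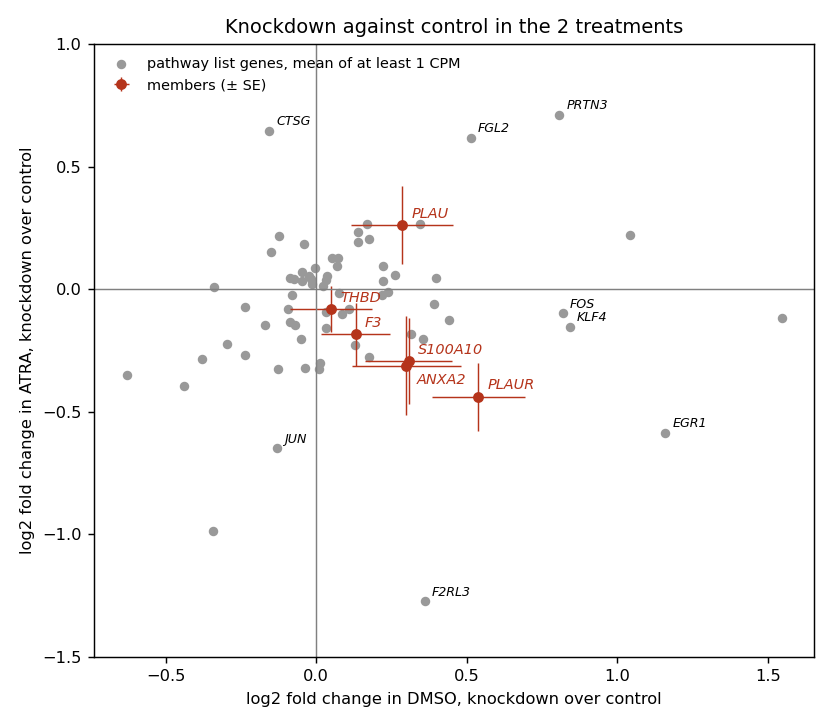
Log2 fold change of knockdown over control in DMSO on the horizontal axis and in ATRA on the vertical axis; red points with bars of 1 SE are the members, grey points the pathway list genes averaging 1 CPM or more. PLAUR, ANXA2, S100A10, F3 and THBD lie at the lower right, higher in DMSO and lower in ATRA, and PLAU lies in the upper right.

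The hairpins also differed from each other, with 250 of 12300 genes called between hairpin 2 and hairpin 1 over both treatments (2.03%). No member was among them. ANXA2 stood 0.28 ± 0.09 higher with hairpin 2 on the log2 scale (SE, edgeR adjusted p = 0.14), PLAU 0.25 ± 0.09 (0.16) and S100A10 0.23 ± 0.09 (0.31). PLAUR, F3 and THBD gave 0.03 ± 0.09 (edgeR adjusted p = 0.97), 0.07 ± 0.10 (0.90) and 0.05 ± 0.07 (0.90). Of the list genes, AHNAK (0.47), ANXA5 (0.42), FGL2 (0.49), NFKBIA (0.32) and PRTN3 (0.35) were called, all higher with hairpin 2.

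The genes whose profile over the 6 libraries lay closest to each member were sought among the 9467 genes averaging 10 CPM or more, by the root mean square distance between centred log2 CPM values. S100A10 had the closest neighbour of all, LGALS1 (galectin-1) at a distance of 0.034, followed by RFX8 and CELSR1. LGALS1 went from 187, 207 and 258 CPM in DMSO to 52.8, 40.5 and 41.5 CPM in ATRA. PLAU lay closest to CYP51A1, an enzyme of cholesterol synthesis, at 0.040, then to TBC1D1 and OLIG1. PLAUR lay closest to TSPAN16 at 0.047, then to GBP2 and PFKFB4. F3 lay closest to FAIM at 0.050, then to CAPRIN2 and MACROD1, THBD to CD52 at 0.055, then to RBM47 and THEMIS2, and ANXA2 to SPON2 at 0.082, then to COL27A1 and TRIP10. ANXA2 and S100A10, the subunits of 1 complex, did not have each other among their 3 closest genes, and these distances over 6 libraries are a description of shape with no test.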

How the data were processed

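Gene counts of 6 NB4 RNA-seq libraries were used. GeneJET columns and the NEBNext Ultra kit served for RNA and libraries, per the labels' protocols. The submitters' processing notes name GRCh37.p13, STAR, bcl2fastq, DESeq2 and Picard 2.5.0; the sources used here give neither gene counter nor strand setting. What the authors deposited were raw counts per gene, with no normalization, 2 columns to a library and read here as its sequencing runs. The series text says that samples were sequenced repeatedly as technical replicates. The same deposited tables hold the authors' normalized signal and mean signal, test score, log2 fold change and p-values for knockdown against control, of which only the log2 fold changes and adjusted p-values were quoted. There are 12 normalized columns for 6 libraries, so runs may have entered the authors' test as replicates.

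Runs were summed per library. Fits used R 4.3.3 and edgeR 4.0.16 on the 12301 genes in both tables, with full table totals as library sizes, filterByExpr by group, TMM and a threshold of 0.05. The ATRA response had knockdown state as a term (3 residual degrees of freedom), the knockdown comparisons used 4 groups (2), hairpin 2 was set against hairpin 1 with treatment as a term (1), and SERPINB2 was tested in the ATRA libraries alone (1). A standard error is the size of the log2 fold change over the square root of F. The edgeR script was tested on simulated data. DESeq2 1.42.0 was an alternative; figures and tables used Python 3.11.15, pandas 2.3.3 and matplotlib 3.10.9. Poisson intervals (95%) cover counting error only.

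The members and gene lists were chosen with earlier results of these data known. Beside the members, the text names up to 5 called genes of each list with the largest change under ATRA, the 2 most abundant, up to 4 listed in 1 table only, and the 3 closest profiles. Pathway list genes called between hairpins, the genes of the sign pattern and the further FOS and JUN genes were named after their values were seen. From the fibrinolysis list 1 gene is not reported here. Promoters of 7 of the 8 members matched a RefSeq entry (GRCh38.p14), and THBD had no entry there. The files give no coordinates.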

Additional observations from a re-analysis of the deposited data

Results flagged for a closer look

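In each of the genes below, both hairpins lay on one side of the control library in DMSO and on the other side in ATRA. This flagged 23 genes, 4 members and 19 pathway list genes. In the 4-group test of the difference in ATRA response of knockdown and control cells, 0 passed (edgeR's quasi-likelihood test, Benjamini-Hochberg adjustment over 12301 genes). An unadjusted p under 0.05 was found for 11 of them, for 25.8% of all 3102 genes with either form of the pattern and for 7.96% of all genes. The genes were picked by the same difference that this p tests, so the 11 support nothing. Values are that difference on the log2 scale. With 1 control library per treatment, every such gene rests on the same 2 control libraries, and 12.5% and 12.8% of all genes show the 2 forms of the pattern.

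The members stood above the control in DMSO and below it in ATRA: PLAUR at -0.98, ANXA2 at -0.61, S100A10 at -0.60 and F3 at -0.31. The same order held for 13 list genes. Among regulators of fibrinolysis these were PLAT (-1.71), SERPINB6 (-1.66) and ENO1 (-0.36). Among the transcription factors they were EGR1 (-1.75), KLF4 (-0.99), FOS (-0.92), FOSL2 (-0.19), NFKB1 (-0.19) and RELA (-0.13). The others were the thrombin receptor F2RL3 (-1.63), F12 (-0.50), CD55 (-0.45) and LMAN1 (-0.092).

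The opposite order, below the control in DMSO and above it in ATRA, held for 6 list genes: CTSG (0.80), ENTPD1 (0.34), ATP8A1 (0.30), PLGRKT (0.13), PDIA3 (0.12) and MCFD2 (0.058). CTSG, the cathepsin G gene of primary granules, measured 74.5, 71.4 and 62.3 CPM in the control, hairpin 1 and hairpin 2 libraries in DMSO and 2.94, 3.86 and 5.41 CPM in ATRA.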

How the results depend on the processing

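The direction and call of all 6 members under ATRA held in each of the 13 alternatives run: library totals, RLE factors, DESeq2, no filter, each run alone, the construct as a replicate block, and each library left out. Library totals split the ATRA calls into 3637 higher and 5722 lower (38.9% higher, against 48.9% with TMM). No member was called in any alternative for knockdown against control in the 6-library fits, in DMSO or in ATRA. Counts of all genes called for knockdown in DMSO, 0 as reported, were 38 with DESeq2, 3 in the second run alone, 116 with the replicate block and 0 to 21 with 1 library left out, the 21 without hairpin 1 in DMSO. In ATRA, 1 as reported, they were 52 with DESeq2, 7 in the second run, 348 with the block and 0 to 1 with 1 library left out. For the difference in ATRA response, 6 as reported, they were 48 with DESeq2, 129 with the block and 1 to 2 with 1 library left out, and 1 member, PLAUR, was called with DESeq2 and with the block.

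With the replicate block, which removes what the hairpins share across treatments, the PLAUR difference was -0.97 (edgeR adjusted p = 0.011, against 0.011 to 0.90 over its alternatives); it changed no other member's call. Of the list genes it called 3 in DMSO (EGR1, KLF4 and PRTN3), 6 in ATRA and 2 for the difference (EGR1 and ENO1), a count added after the data were seen. The labels name the same constructs in both treatments but do not say whether a construct's libraries share transduced cells. A construct's deviations from the treatment means correlated between treatments at r = 0.08 (control), 0.194 (hairpin 1) and 0.212 (hairpin 2). This was over 9467 genes averaging 10 CPM or more, and each correlated best with its own construct. Whether shared cells or the same hairpin gave this was not tested. Hairpin 2 against hairpin 1, 250 genes as reported, gave 382 with RLE factors and 49 with DESeq2, and ANXA2 was the 1 member called, at 0.28 with RLE factors (edgeR adjusted p = 0.046) and at 0.39 in the second run alone (0.017). The SERPINB2 difference of -0.34 passed in the second run alone, at -0.35, where the share of all genes called was not counted.

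Signs turned only where values were near 0. THBD for knockdown in DMSO was -0.14 in the first run alone and -0.086 without hairpin 2 in DMSO. Differences in ATRA response became 0.0021 (THBD) and 0.13 (PLAU) in the first run alone, 0.001 (THBD) and 0.0071 (PLAU) without hairpin 2 in DMSO, and 0.16 (PLAU) without hairpin 1 in ATRA. Between hairpins, PLAUR was -1.1e-05 in the second run. The causes were not tested. Leaving out a library was not possible for the hairpin comparison and SERPINB2, nor the control of a treatment for knockdown, where no residual degree of freedom or no control remained. Depth limits the lowest genes, among them PLAT, with 10 to 32 counts per library, and SERPINB6, with a mean of 0.165 CPM in DMSO.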
